A study of Mus musculus with 2 samples.

Results

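The genes described are those of the mouse proteasome: all genes with a symbol of the form Psma, Psmb, Psmc, Psmd or Psme followed by a number, and at least 20 CPM in either library. CPM are UMIs (unique molecular identifiers, which count captured transcripts) of a gene, scaled to the UMI total of the cells summed. Of the 31053 genes counted, 45 had such a symbol and 41 passed the minimum. The 5 genes of the immune forms (Psmb8, Psmb9, Psmb10, Psme1 and Psme2) were set against the other 36. Psmd5 was the member just inside the minimum, at 19.5 CPM in Ctrl against 23.6 in RES, and Psme2b was just outside it, at 17.5 and 16.5 CPM. The other genes below it were Psmc3ip, which has a matching symbol and is not a proteasome subunit, and Psma8 and Psmb11, the testis and thymus forms of 2 core subunits. All 3 stood at 3.21 CPM or less in both libraries.

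Transcripts were counted by 10x droplet sequencing of 3′ ends in CD45+ CD11b+ leukocytes sorted from the livers of C57BL/6 mice. The Ctrl group was an uninjured control, and the RES group came from mice in which liver fibrosis had resolved. Both groups shared the strain, the tissue and the sort, and in each the liver mononuclear cells of 5 mice were pooled into 1 library. With 1 library per group there is no replicate check of any difference and no test of it, a batch and the group cannot be told apart, and the 95% intervals below cover counting error alone. The agent that caused the fibrosis, the time allowed for resolution and the age and sex of the mice are not given by the labels.

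The proteasome is the protease that degrades most ubiquitin-tagged proteins of the cell. Its core particle is a barrel of alpha and beta rings, and the peptide bonds are cut inside by Psmb5, Psmb6 and Psmb7. In immune cells and under interferon gamma, newly built cores take up Psmb8 (LMP7) in place of Psmb5, Psmb9 (LMP2) in place of Psmb6 and Psmb10 (MECL-1) in place of Psmb7. Such immunoproteasomes cut more peptides with ends that fit MHC class I molecules, and the activator ring of Psme1 and Psme2 (PA28 alpha and beta) opens the core from outside. ATPase (Psmc) and non-ATPase (Psmd) subunits form the regulatory particle that binds, unfolds and feeds in the tagged proteins.

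The Ctrl library held 20379164 UMIs in 3691 barcodes and the RES library 34119806 in 4278. After filtering, 3337 and 4011 cells were kept, with medians of 4507 and 6360 UMIs and of 2.43% and 2.55% mitochondrial UMIs. The libraries shared 56 barcodes, of which 49 were kept in both. Classes were gated on marker genes. There were 1401 Ctrl and 1414 RES NK cells, 446 and 552 classical monocytes, 323 and 559 nonclassical monocytes, 256 and 908 macrophages, 189 and 132 conventional dendritic cells and 85 and 63 B cells. The joint class of monocytes and macrophages, which also includes 36 and 33 intermediate monocytes, held 1061 and 2052 cells. Macrophages with Arg1 or Spp1, an arginase and a matrix protein of macrophages at sites of repair, made up 43 of the 256 Ctrl macrophages and 673 of the 908 RES macrophages. The 43 Ctrl cells had a median of 669 UMIs against 11804 in RES, so RES macrophages are given below with and without such cells. The Kupffer cell markers Clec4f, Timd4, Cd163, Marco and Vsig4 summed in the gated macrophages to 11.45 CPM in Ctrl, with Marco at 0, and to 4.95 CPM in RES, with all 5 detected. The 7 macrophage markers summed there to 4376 and 2586 CPM, so the markers of the resident liver macrophage were present at a low level that differed between the libraries.

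Psmb8 and Psmb9 lie on chromosome 17 (GRCm38, GENCODE M21) in the MHC region, beside the peptide transporter genes Tap1 and Tap2. Psmb9 spans bases 34181987 to 34187764 on the minus strand, Tap1 34187553 to 34197225 on the plus strand, Psmb8 34197721 to 34201454 on the plus strand and Tap2 34203527 to 34216321 on the plus strand. Psmb10 lies on chromosome 8, from 105935735 to 105938444 on the minus strand. Psme1 (55578123 to 55581529, plus strand) and Psme2 (55587441 to 55591113, minus strand) are neighbours on chromosome 14, which also holds Psmb5 (54614119 to 54618022, minus strand). Psmb6 is on chromosome 11 (70525367 to 70527858, plus strand) and Psmb7 on chromosome 2 (38588036 to 38644087, minus strand). Psmb9 overlaps Tap1, Psmb7 overlaps Nek6 and Psme1 overlaps Emc9, each on the opposite strand, and Psme2b is a close copy of Psme2. The labels do not say how the counting treated strand and shared reads, so these counts are uncertain to that extent.

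The promoters of the 5 immune genes are shown because these genes moved together in the data, and those of Psmb5 and Psmb6 as their standard counterparts. Each sequence runs 5′ to 3′ on the strand of the gene, from 250 bases before to 50 bases after the start site (RefSeq, GRCm38.p6, 300 bases). The gene spans above are from GENCODE, which places some gene starts elsewhere. The windows of Psmb8, Psmb9 and Psme1 lie wholly inside those spans, so they are not upstream of the GENCODE genes. Capitals mark matches, on either strand, to the interferon-stimulated response core GAAANNGAAA, the gamma-activated site TTCNNNGAA, or the antioxidant response core TGACNNNGC bound by NRF1 and NRF2 with small MAF proteins.
Psmb8, chr17:34197945-34198244, plus strand: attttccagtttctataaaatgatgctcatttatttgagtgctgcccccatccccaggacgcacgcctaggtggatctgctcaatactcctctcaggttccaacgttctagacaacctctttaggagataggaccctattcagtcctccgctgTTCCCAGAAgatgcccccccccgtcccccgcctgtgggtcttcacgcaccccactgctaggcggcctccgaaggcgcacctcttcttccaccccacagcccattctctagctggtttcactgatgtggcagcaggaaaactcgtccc
Psmb9, chr17:34187281-34187580, minus strand: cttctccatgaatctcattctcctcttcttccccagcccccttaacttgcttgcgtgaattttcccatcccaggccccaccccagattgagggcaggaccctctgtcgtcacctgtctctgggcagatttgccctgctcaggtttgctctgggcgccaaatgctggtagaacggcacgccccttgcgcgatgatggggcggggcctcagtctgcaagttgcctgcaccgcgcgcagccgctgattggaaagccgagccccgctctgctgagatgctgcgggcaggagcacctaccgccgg
Psmb10, chr8:105938343-105938642, minus strand: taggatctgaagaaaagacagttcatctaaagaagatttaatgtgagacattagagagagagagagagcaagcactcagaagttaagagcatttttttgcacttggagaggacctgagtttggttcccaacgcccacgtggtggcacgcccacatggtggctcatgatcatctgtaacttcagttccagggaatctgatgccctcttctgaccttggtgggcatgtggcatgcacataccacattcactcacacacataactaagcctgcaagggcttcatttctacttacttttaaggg
Psme1, chr14:55578244-55578543, plus strand: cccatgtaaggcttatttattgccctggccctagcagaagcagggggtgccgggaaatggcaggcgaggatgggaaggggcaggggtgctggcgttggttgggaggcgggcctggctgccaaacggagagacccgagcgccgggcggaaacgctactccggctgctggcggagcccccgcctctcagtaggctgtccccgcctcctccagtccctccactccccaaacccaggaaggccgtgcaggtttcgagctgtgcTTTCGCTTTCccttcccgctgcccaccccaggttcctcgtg
Psme2, chr14:55591052-55591351, minus strand: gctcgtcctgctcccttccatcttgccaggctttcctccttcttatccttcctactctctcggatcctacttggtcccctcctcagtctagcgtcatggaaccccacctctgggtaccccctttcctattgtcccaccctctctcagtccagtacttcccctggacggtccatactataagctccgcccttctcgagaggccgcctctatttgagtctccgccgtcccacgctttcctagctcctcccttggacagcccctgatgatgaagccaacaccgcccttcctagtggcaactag
Psmb5, chr14:54617946-54618245, minus strand: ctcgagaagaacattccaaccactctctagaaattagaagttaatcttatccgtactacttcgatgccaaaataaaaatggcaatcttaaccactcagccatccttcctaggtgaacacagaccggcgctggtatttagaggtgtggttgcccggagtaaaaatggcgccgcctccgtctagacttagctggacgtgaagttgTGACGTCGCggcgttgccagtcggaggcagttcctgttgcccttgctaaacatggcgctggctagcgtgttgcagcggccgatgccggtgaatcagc
Psmb6, chr11:70525107-70525406, plus strand: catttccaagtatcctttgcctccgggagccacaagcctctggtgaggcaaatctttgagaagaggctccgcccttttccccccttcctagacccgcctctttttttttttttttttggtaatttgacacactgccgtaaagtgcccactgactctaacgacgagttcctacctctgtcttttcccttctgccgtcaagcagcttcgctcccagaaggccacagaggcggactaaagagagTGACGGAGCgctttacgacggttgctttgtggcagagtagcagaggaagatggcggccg

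A promoter was matched for 35 of the 41 members, including all 5 immune genes. The interferon-stimulated response core was found in 1 of the 5 immune promoters, that of Psme1, 10 bases after the start site, and in 3 of 30 other members (Psmb3, Psmd4 and Psmd9), against 3.49% of 27025 promoters of the same length. The gamma-activated site was found in Psmb8, starting 97 bases before the start site, and among the others in Psmd2, against 8.47% of all promoters. The antioxidant response core was found in 0 of 5 immune promoters and in 6 of 30 others, among them Psmb5, at 47 bases, and Psmb6, at 9 bases before the start site, against 12.5%. The CCAAT box, not marked above, was found in the immune set in Psmb9 alone and in 12 of 30 others, against 37.9%. None of the marked matches overlapped another. The Psmb9 and Tap1 windows lie on opposite strands and share 275 bases, chr17:34187306-34187580. A match describes these letters only, and a missing match says only that the letters are not in this window. Distances are from the RefSeq start site, which lies inside the GENCODE gene span for all 5 immune genes and Psmb5, and just before it for Psmb6.

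Monocytes and macrophages carried less of the immune set in RES than in Ctrl, while NK cells carried nearly the same amount. In monocytes and macrophages all 5 immune genes were lower by 1.5-fold or more, where 4.58% of all genes with at least 20 CPM were lower and 6.64% higher, and none of the other 36 members was past that fold in either direction. This joint class had a different makeup in the libraries, with macrophages at 256 of 1061 Ctrl cells and 908 of 2052 RES cells. Without the macrophages that had Arg1 or Spp1, an alternative chosen after seeing the data, 2 of the 5 were lower by that fold (Psmb9 and Psme2), where 2.62% of all genes were lower and 2.4% higher. In those cells Psmb8 stood at 513 CPM in Ctrl and 358 in RES, Psmb10 at 195 and 137 CPM and Psme1 at 466 and 342 CPM. By subset, 2 of the 5 were past the fold in classical monocytes and 3 in nonclassical monocytes. The values of the joint class below take in this difference in makeup. The immune set made up 28.6% of all member UMIs in Ctrl (28.2 to 29.1) and 17.1% in RES (16.9 to 17.3). In NK cells it made up 26.4% (25.9 to 26.9) and 25.9% (25.5 to 26.4). Member UMIs as a whole hardly differed: in monocytes and macrophages they summed to 5905 CPM in Ctrl against 5576 in RES, and in NK cells to 5517 and 5474 CPM.

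Psmb9 was lower by the largest fold of the immune set in monocytes and macrophages. Here and below, paired levels are given for Ctrl first and RES second, and a ratio is RES over Ctrl on the log2 scale, followed by its interval. Psmb9 stood at 185 CPM in Ctrl (1372 UMIs) and 80.1 CPM in RES (1629 UMIs), a log2 ratio of -1.21 (-1.31 to -1.10). Psmb8 stood at 508 CPM in Ctrl and 272 in RES, a log2 ratio of -0.90 (-0.96 to -0.84). Psmb10 was lower by the smallest fold of the immune catalytic subunits, with 192 CPM in Ctrl, 118 CPM in RES and -0.70 (-0.80 to -0.61). Of the activator genes, Psme2 stood at 342 and 188 CPM (-0.86, -0.94 to -0.79) and Psme1 at 463 and 296 CPM (-0.65, -0.71 to -0.59). The median log2 ratio was -0.86 over the 5 immune genes and 0.22 over the other 36, against 0.03 over all genes tested.

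The standard catalytic subunits leaned the other way in the same cells, without reaching the fold. Psmb7 had 77.2 CPM in Ctrl against 101 in RES (0.39, 0.25 to 0.53), Psmb6 131 against 153 CPM (0.22, 0.12 to 0.33) and Psmb5 183 against 203 CPM (0.14, 0.05 to 0.23). Of the 36 other members, 31 had a log2 ratio above 0 and 5 below, from -0.22 to 0.54. The median over all genes tested was 0.03, and the share of all genes above 0 was not computed. Summed by role, the ATPase subunits stood at 403 CPM in Ctrl and 498 in RES (0.31, 0.25 to 0.37) and the non-ATPase subunits at 890.5 and 1072 CPM (0.27, 0.23 to 0.31). The alpha ring subunits, which gate the core, stood at 1565 and 1544 CPM (-0.02, -0.05 to 0.01), and the structural beta subunits at 775 and 846 CPM (0.13, 0.08 to 0.17). The sums of the regulatory particle, of the structural beta subunits and of the standard catalytic subunits (0.22, 0.16 to 0.28) were thus higher in the joint class. That of the alpha ring was not. In nonclassical monocytes alone, the ATPase (0.04, -0.09 to 0.17) and non-ATPase (0.003, -0.08 to 0.09) intervals held 0. So did the standard catalytic (0.08, -0.05 to 0.22) and structural beta (0.005, -0.09 to 0.10) intervals there, and the alpha ring was lower (-0.11, -0.18 to -0.04). In macrophages without Arg1 or Spp1 the standard catalytic interval held 0 (0.07, -0.08 to 0.21), and the ATPase, non-ATPase and structural beta intervals lay above 0. In classical monocytes all of these but the alpha ring lay above 0.

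The alpha ring did not move as a unit in monocytes and macrophages. Psma6 was the highest of the other members at 114 CPM in Ctrl and 167 in RES (0.55, 0.44 to 0.66). Psma4 and Psma5 were the lowest, at 205 and 176 CPM (-0.22, -0.31 to -0.14) and at 144 and 128 CPM (-0.18, -0.28 to -0.07). Psmd8, a lid subunit of the regulatory particle, was second highest, at 155 and 221 CPM (0.51, 0.42 to 0.61). Both Psma6 and Psmd8 had their highest level in RES macrophages with Arg1 or Spp1, at 228 and 279 CPM. In macrophages without Arg1 or Spp1, Psma6 stood at 135 CPM in Ctrl and 139 in RES, and Psmd8 at 134 and 194 CPM (0.53, 0.29 to 0.78). In nonclassical monocytes neither was higher: Psmd8 had 160 CPM in Ctrl and 148 in RES, and Psma6 had 117 and 114 CPM.

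**Figure D1:**
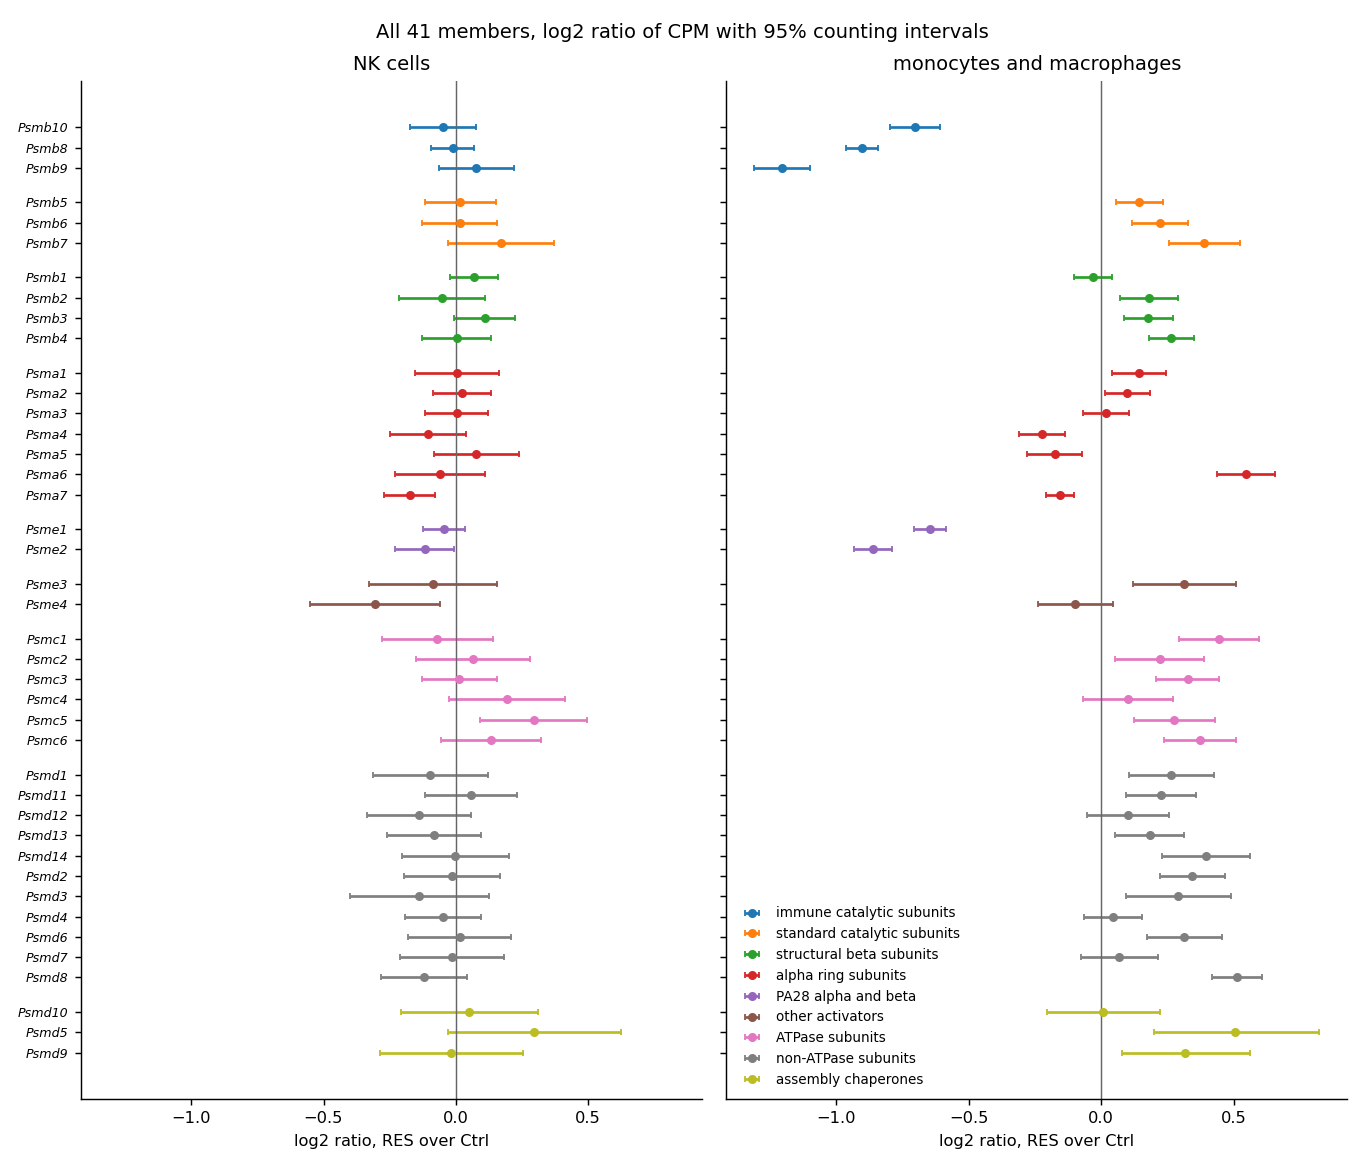
Log2 ratio of CPM, RES over Ctrl, for each of the 41 members by role, in NK cells (left) and in monocytes and macrophages (right); points are ratios of 1 library per group and bars are 95% counting intervals. On the right the 5 immune genes lie between -1.21 and -0.65, apart from all others, which lie between -0.22 and 0.55; on the left no such gap is seen.

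NK cells made up 42.0% of kept Ctrl cells and 35.3% of RES cells, and none of their 41 members was past 1.5-fold. The share of all genes past it was small in this class, at 0.59% lower and 0.775% higher. Psmb8 stood at 438 CPM in Ctrl and 435 in RES (-0.01, -0.09 to 0.07), and Psmb9 at 138 and 146 CPM (0.08, -0.07 to 0.22). Psmb10 stood at 186 and 180 CPM, Psme1 at 450.02 and 436 CPM and Psme2 at 243 and 223 CPM, where the interval of the ratio for Psme2 lay just below 0 (-0.12, -0.23 to -0.01). The standard subunits Psmb5 (160 and 162 CPM) and Psmb6 (142 and 143 CPM) were also near equal, and Psmb7 stood at 68.4 and 77.0 CPM. At the ends of the other members were Psme4 (53.7 and 43.4 CPM, -0.31, -0.55 to -0.06), Psma7 (-0.17, -0.27 to -0.08), Psmc5 (0.29, 0.09 to 0.50) and Psmd5 (0.29, -0.03 to 0.62).

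The odds of an immune UMI against any other member UMI do not depend on how a library is scaled. In NK cells the log2 ratio of these odds, RES over Ctrl, was -0.03 (-0.08 to 0.02), and in monocytes and macrophages it was -0.96 (-0.997 to -0.922), or 1.94-fold lower odds. The intervals do not overlap, but with 1 library per group the difference between the classes was not tested over mice. Without the macrophages that had Arg1 or Spp1 the value for monocytes and macrophages was -0.63. Over all kept cells it was -0.66 (-0.69 to -0.64). That value also takes in the mix of classes, as macrophages were 7.67% of kept Ctrl cells and 22.6% of RES cells, so it is not a measure of any 1 class. Of the immune genes in all kept cells, Psmb9 and Psme2 were lower by 1.5-fold and Psmb8, Psmb10 and Psme1 were not, where 3.51% of all genes were lower and 5.86% higher.

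**Figure D2:**
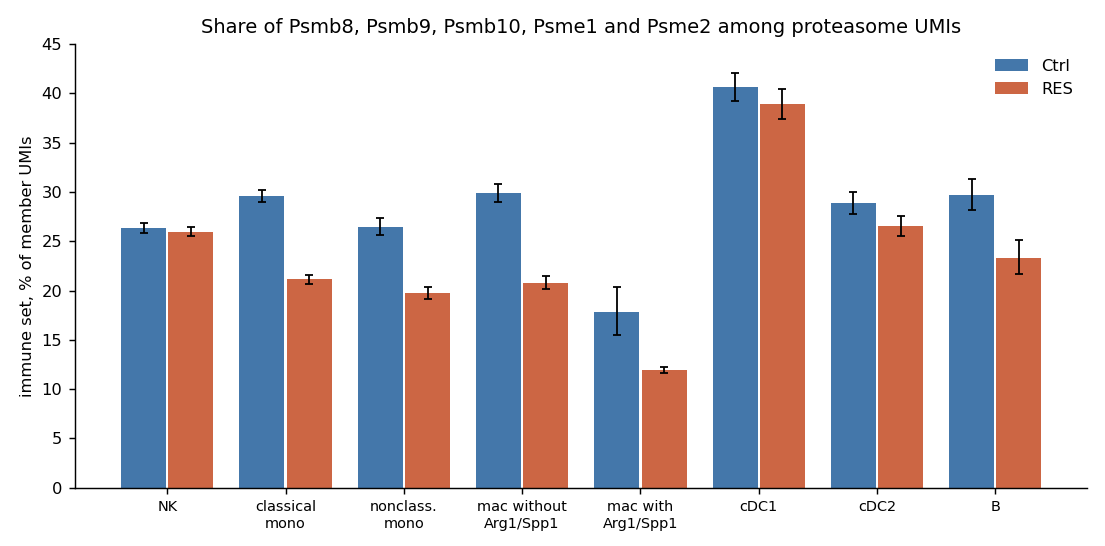
Share of the 5 immune genes in all proteasome member UMIs, in percent, by class for Ctrl (blue) and RES (orange); bars are 1 library each and error bars are exact 95% counting intervals. The share falls between 19.7% and 29.9% in most bars, with type 1 dendritic cells at 40.6% and 38.9% and macrophages with Arg1 or Spp1 at 17.8% and 11.95%. The bar at 17.8% is from 43 Ctrl cells with a median of 669 UMIs.

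Classical monocytes, the Ly6c2-rich cells recruited from blood, carried an immune share of 29.6% in Ctrl (29.0 to 30.2) and 21.1% in RES (20.7 to 21.6). Psme2 (382 CPM in Ctrl, 221 CPM in RES, -0.79, -0.90 to -0.68) and Psmb9 (200.3 and 131 CPM, -0.61, -0.76 to -0.46) were lower by 1.5-fold, where 3.93% of all genes were lower and 3.56% higher. Psmb8 (544 and 404 CPM), Psmb10 (207 and 150.5 CPM) and Psme1 (506 and 355 CPM) were lower by less. The standard subunits Psmb5 (179 and 186 CPM), Psmb6 (134 and 152 CPM) and Psmb7 (78.4 and 102 CPM) were not past the fold. Among the others Psmd9, an assembly chaperone, was higher (19.4 and 30.3 CPM, 0.64, 0.24 to 1.06), followed by Psmc3 (0.34, 0.15 to 0.53), and Psme4 (-0.25, -0.46 to -0.03) and Psma4 (-0.23, -0.36 to -0.10) were lowest. Different clusters held the gated cells: of the 446 Ctrl cells 185 were in cluster 11 and 180 in cluster 7, and of the 552 RES cells 380 were in cluster 7. With classes taken from clusters the log2 odds ratio was -0.38 in place of -0.65, and the count of members lower was 0 in place of 2.

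Nonclassical monocytes, which patrol vessel walls, gave 26.5% in Ctrl (25.6 to 27.3) and 19.7% in RES (19.1 to 20.4), and a log2 odds ratio of -0.55 (-0.64 to -0.47). The same cluster, cluster 6, held most of the class in both libraries, 254 of 323 Ctrl cells and 525 of 559 RES cells, while cluster 11 held 62 and 29. The median depth was 4980 and 5053 UMIs per cell over the class, and with cells thinned to 1000 UMIs the log2 odds ratio was -0.37. Psmb9 (157 and 86.5 CPM, -0.86, -1.10 to -0.63), Psme2 (268 and 167 CPM, -0.69, -0.86 to -0.51) and Psmb8 (410.1 and 268 CPM, -0.62, -0.75 to -0.48) were lower by 1.5-fold, where 2.45% of all genes were lower and 4.78% higher. Psmb10 (160 and 115 CPM) and Psme1 (379 and 285 CPM) were not past it. Psmb5 (171 and 178 CPM), Psmb6 (116 and 110.02 CPM) and Psmb7 (71.8 and 91.7 CPM) were on either side of 0, and the ends of the other members were Psmc4 (-0.34, -0.74 to 0.06), Psmd13 (-0.29, -0.57 to -0.01), Psmd2 (0.18, -0.09 to 0.46) and Psmc2 (0.25, -0.11 to 0.62). With classes from clusters, 1 member was lower in place of 3.

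Macrophages as a whole showed the widest gap, with an immune share of 28.7% in Ctrl (27.9 to 29.6) against 13.9% in RES (13.6 to 14.2). All 5 immune genes were lower by 1.5-fold, from -1.95 for Psmb9 (186 and 48.3 CPM, -2.15 to -1.74) and -1.51 for Psmb8 (554 and 194 CPM, -1.63 to -1.40) to -0.82 for Psme1 (467 and 264 CPM). Psmb10 (193 and 101 CPM, -0.94) and Psme2 (340 and 175 CPM, -0.96) lay between. In this class 12.9% of all genes were lower and 12.9% higher, so folds of this size were common. Psmb5 (202 and 219 CPM), Psmb6 (148 and 168 CPM) and Psmb7 (84.4 and 103 CPM) were not past the fold, while 3 others were higher: Psmd8 (138 and 261 CPM, 0.92, 0.72 to 1.12), Psmd5 (14.5 and 23.1 CPM, 0.67, 0.07 to 1.34) and Psmc6, an ATPase subunit (74.1 and 115 CPM, 0.63, 0.36 to 0.91). Psma5 (-0.34, -0.54 to -0.14) and Psma4 (-0.26, -0.42 to -0.09) were the lowest. The gate held different cells in the libraries, mainly clusters 11, 12 and 15 in Ctrl and cluster 8, with 729 of 908 cells, in RES. Cluster 15, with 36 of the Ctrl cells, was given no class and had a median of 943 UMIs in Ctrl.

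Without the cells that had Arg1 or Spp1, the macrophages still carried less of the immune set in RES. The immune share was 29.9% in 213 Ctrl cells (28.9 to 30.8) and 20.8% in 235 RES cells (20.1 to 21.5), a log2 odds ratio of -0.70 (-0.79 to -0.61). These cells too lay in different clusters: 113 of the Ctrl cells were in cluster 11, 46 in cluster 12 and 21 in cluster 6, and of the RES cells 75 were in cluster 11, 67 in cluster 8, which held most RES macrophages with Arg1 or Spp1, and 50 in cluster 7, a cluster of classical monocytes. The 7 macrophage markers summed to 4596 CPM in Ctrl and 2548 in RES, the 6 classical monocyte markers to 2025 and 3484 CPM, and the 4 type 1 dendritic cell markers to 98.0 CPM with Itgae at 0 and 13.8 CPM with Xcr1 and Itgae at 0. Their part in the difference was not tested. Psmb8 (582 and 359 CPM, -0.70, -0.84 to -0.56), Psmb9 (197 and 121 CPM, -0.70, -0.94 to -0.46), Psme2 (358 and 220 CPM, -0.70, -0.88 to -0.52) and Psmb10 (206 and 134 CPM, -0.62, -0.85 to -0.39) were lower by 1.5-fold, and Psme1 (480 and 389 CPM, -0.30, -0.45 to -0.16) was not. The background was 8.39% of all genes lower and 6.84% higher, and among the other members Psmd5 was higher (14.1 and 25.9 CPM) and Psmd7 (-0.35, -0.70 to 0.00) and Psma3 (-0.20, -0.40 to 0.01) were lowest. Psmd5 reached the 20 CPM minimum there in RES alone, which favours a call of higher. Psmb5 (195 and 199.6 CPM), Psmb6 (148 and 149 CPM) and Psmb7 (87.2 and 101 CPM) were close between the libraries.

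The RES macrophages with Arg1 or Spp1 had the lowest immune share of all populations gated. Psmb9 stood at 28.9 CPM (25.4 to 32.8) and Psmb8 at 151 CPM (143 to 159), where the RES macrophages without Arg1 or Spp1 had 121 and 359 CPM. Psmb10 was at 91.8 CPM against 134, Psme1 at 231 against 389 and Psme2 at 163 against 220 in those cells. Standard subunits were as high or higher: Psmb5 at 224 CPM against 199.6, Psmb6 at 173 against 149 and Psmb7 at 103 against 101. The immune share was 11.95% (11.7 to 12.2) against 20.8%. Both kinds of macrophage came from the same library, so this difference lies within RES and shares its preparation.

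**Figure D3:**
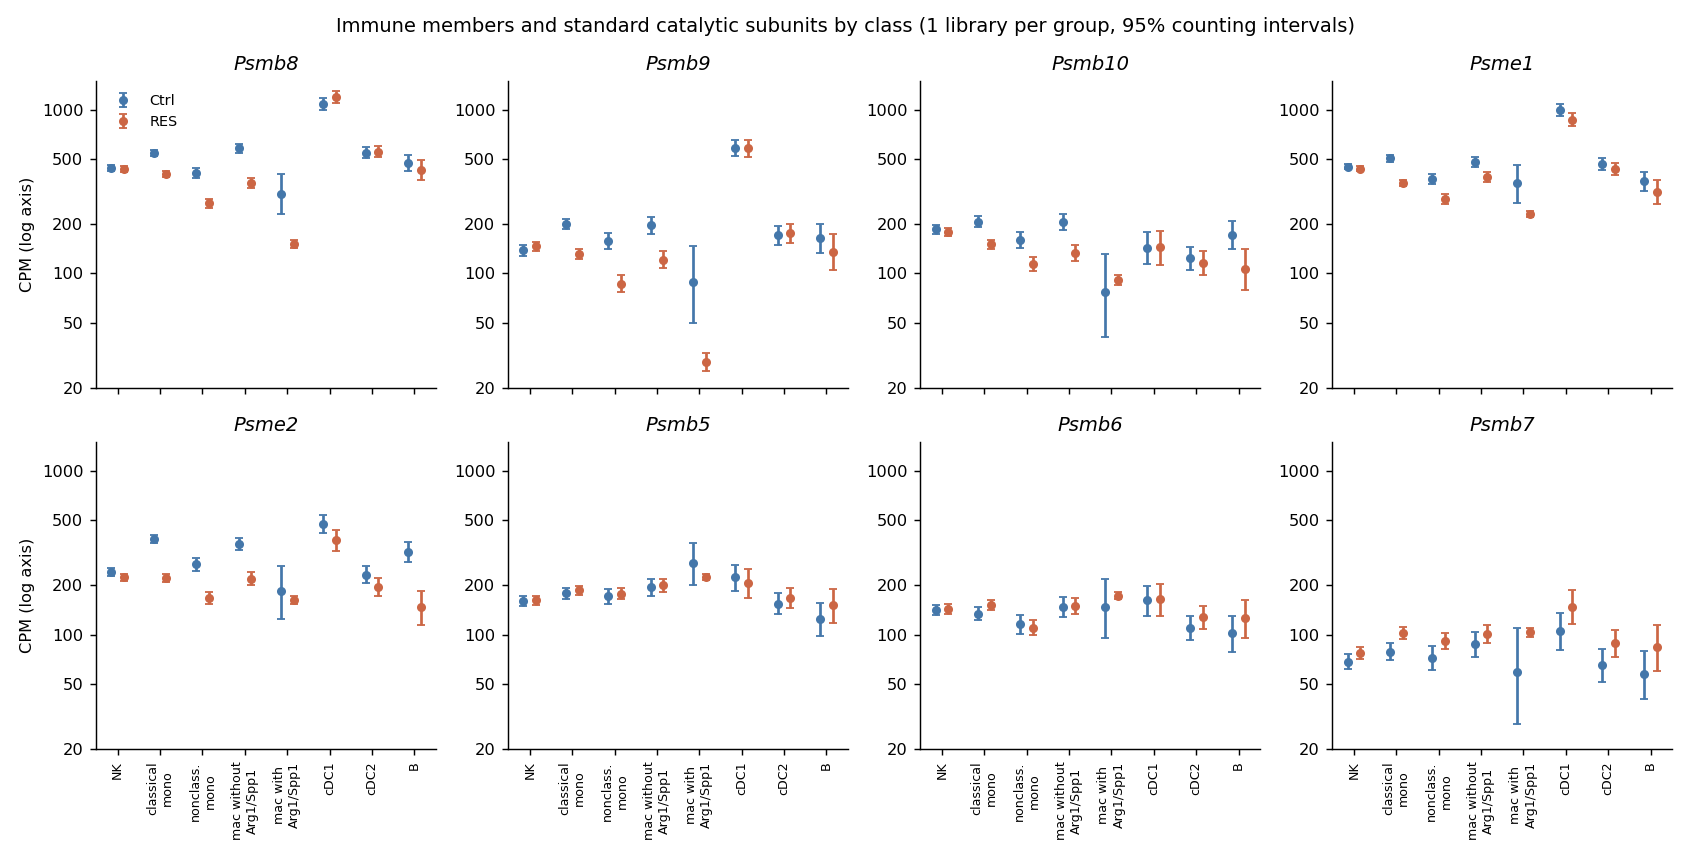
Level of the 5 immune genes and the 3 standard catalytic subunits in each class, in CPM on a log axis, for Ctrl (blue) and RES (orange); points are 1 library each and bars are exact 95% Poisson intervals. Ctrl lies above RES for the immune genes in monocytes and in macrophages without Arg1 or Spp1, the libraries lie close in NK cells, and Psmb9 spans from 580.4 CPM in type 1 dendritic cells to 28.9 CPM in macrophages with Arg1 or Spp1 in RES.

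Conventional dendritic cells kept a high immune share, 33.6% in Ctrl (32.7 to 34.5) and 31.0% in RES (30.1 to 31.9), with a log2 odds ratio of -0.17 (-0.26 to -0.09). None of the 41 members was past the fold, where 4.35% of all genes were lower and 6.07% higher. Psmb8 (710.3 and 733 CPM), Psmb9 (298 and 290.1 CPM) and Psmb10 (129 and 123 CPM) had intervals that held 0, and Psme2 (305 and 247 CPM, -0.31, -0.49 to -0.12) and Psme1 (627 and 558 CPM, -0.17, -0.29 to -0.04) did not. With the catalytic immune genes alone the log2 odds ratio in this class was -0.08. Thinned to equal depth it was -0.01. Psmb5 (174 and 179 CPM), Psmb6 (125 and 136 CPM) and Psmb7 (77.9 and 104 CPM) were not past the fold, and the ends of the others were Psmd13 (-0.29), Psmd9 (-0.20), Psmc2 (0.47, 0.05 to 0.89) and Psmc4 (0.48, 0.05 to 0.90).

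Type 1 dendritic cells, the Xcr1 and Clec9a subset known for cross-presentation to CD8 T cells, had the highest immune share, 40.6% in 42 Ctrl cells (39.2 to 42.1) and 38.9% in 28 RES cells (37.4 to 40.5). Psmb8 stood at 1087 CPM in Ctrl (1002 to 1178) against 1196 in RES (1100.4 to 1297). Psmb9 was at 588 and 580.4 CPM and Psme1 at 996 and 873 CPM. Psmb10 did not share this height, at 143 and 144 CPM, which is no higher than in NK cells. Type 2 dendritic cells had 28.9% (27.8 to 30.03) and 26.5% (25.5 to 27.6), with Psmb8 at 545 and 555 CPM and Psmb9 at 171 and 176 CPM.

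B cells gave 29.7% in Ctrl (28.1 to 31.3) and 23.3% in RES (21.6 to 25.1) from few UMIs, 3153 and 2322 of all members. Psme2 (200 UMIs in Ctrl and 70 in RES, 319 and 146 CPM, -1.12, -1.54 to -0.72) and Psmb10 (172 and 107 CPM, -0.69, -1.20 to -0.20) were lower by 1.5-fold, and Psmb8 (472 and 429 CPM), Psmb9 (164 and 136 CPM) and Psme1 (367 and 316 CPM) were not. Here 16.5% of all genes were lower and 14% higher, so calls were common. Of the other members 2 were lower, Psmd1 (-1.02, -2.12 to -0.03) and Psmd6 (-0.97, -1.77 to -0.22), and 5 were higher, Psmd5 and Psmd9 (each 0.98), Psmc6 (0.76), Psmd3 (0.71) and Psmd7 (0.61). All but Psmc6 of these 5 had intervals that held 0. Psmb5 (124 and 151 CPM), Psmb6 (102 and 125 CPM) and Psmb7 (57.4 and 83.6 CPM) were also uncertain at this depth.

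Each immune catalytic subunit replaces 1 standard subunit, so the share of the immune gene in the UMIs of its pair was taken in each class. Droplet counts capture 3′ ends with an efficiency that differs between genes, so a share is compared between classes and libraries and does not give the ratio of proteins. In monocytes and macrophages the Psmb8 share was 73.5% in Ctrl (72.3 to 74.7) and 57.3% in RES (56.3 to 58.3). The Psmb9 share was 58.5% (56.4 to 60.5) and 34.4% (33.0 to 35.7), and the Psmb10 share 71.3% (69.3 to 73.3) and 53.9% (52.4 to 55.3). In all 3 pairs the share had thus shifted towards the standard subunit in RES. In NK cells the shares were 73.2% and 72.9% for Psmb8, 49.4% and 50.5% for Psmb9 and 73.1% and 70.0% for Psmb10.

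The share was lower in RES for all 3 pairs in both monocyte subsets and in macrophages without Arg1 or Spp1. In classical monocytes the shares in Ctrl and RES were 75.3% and 68.5% for Psmb8, 59.9% and 46.4% for Psmb9 and 72.6% and 59.6% for Psmb10. Nonclassical monocytes gave 70.6% and 60.1%, 57.6% and 44.0%, and 69.0% and 55.6% for the same pairs. Macrophages without Arg1 or Spp1 gave 75.0% and 64.2%, 57.2% and 44.9%, and 70.3% and 57.0%. For Psmb9 and Psmb10 the intervals of these 3 populations overlapped in each library. For Psmb8 those of classical and nonclassical monocytes did not. They were 73.5 to 76.9 and 67.9 to 73.2 in Ctrl, and 66.9 to 70.0 and 57.5 to 62.6 in RES. Macrophages with Arg1 or Spp1 had low shares in both libraries. In Ctrl they were 53.1% (42.7 to 63.2), 37.5% (22.7 to 54.2) and 56.5% (34.5 to 76.8), from 43 cells and few UMIs. In RES they were 40.2% (38.5 to 42.0), 14.4% (12.7 to 16.1) and 47.1% (44.6 to 49.5), so the intervals overlapped for Psmb10. The 43 Ctrl cells had a median of 669 UMIs but summed to 168864, so the deeper of them weigh most in these shares. The 673 RES cells had a median of 11804 UMIs. The 2 groups of cells are thus not like for like, and the part of this in the lower RES shares was not tested. In conventional dendritic cells the Psmb8 share was 80.3% and 80.4%, the Psmb9 share 70.4% and 68.0% and the Psmb10 share 62.3% and 54.2%, each pair with overlapping intervals. Type 1 dendritic cells stood at the other end for 2 pairs, with Psmb8 at 83.0% and 85.3% and Psmb9 at 78.5% and 77.9%, but not for Psmb10, at 57.7% (48.9 to 66.1) and 49.3% (40.8 to 57.8).

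**Figure D4:**
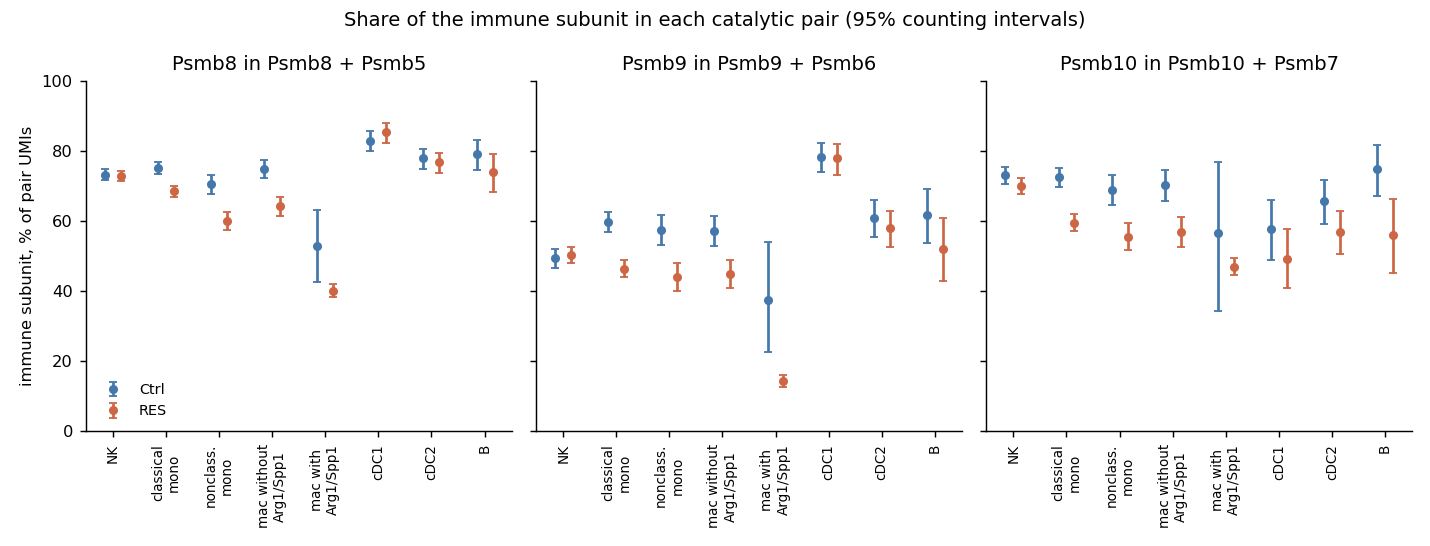
Share of the immune subunit in the UMIs of its catalytic pair, in percent, by class for Ctrl (blue) and RES (orange), with exact 95% counting intervals; the 3 panels are the 3 pairs. RES lies below Ctrl in monocytes and macrophages in every panel, and Psmb9 reaches 14.4% in RES macrophages with Arg1 or Spp1.

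Genes known to respond to interferon gamma were lower together with the immune set in monocytes and macrophages. Of 15 listed genes, 11 had at least 20 CPM there in either library and 11 of 11 were lower by 1.5-fold. Their median log2 ratio was -1.81 against 0.03 for all genes, of which 4.58% were lower. Most of the 11 reached the minimum in Ctrl alone, such as Gbp4 (22.9 and 2.07 CPM), and such entry favours a call of lower. Cxcl10 (255 and 29.8 CPM), Gbp3 (81.1 and 22.4 CPM), Gbp7 (72.1 and 21.2 CPM) and Irgm1 reached it in both libraries. Cxcl9, a chemokine, stood at 416 CPM in Ctrl and 10.4 in RES (-5.32, -5.52 to -5.11), and Gbp2, a guanylate-binding protein, at 212 and 18.3 CPM. Those lower by the smallest fold were Irgm1 (67.6 and 28.0 CPM) and Socs1 (28.7 and 10.9 CPM). In NK cells, where 0.59% of all genes were lower, 3 of 11 tested were lower, Cxcl9 (-5.60, -7.90 to -4.01), Cxcl10 (-2.93, -3.32 to -2.55) and Igtp (-0.68, -1.01 to -0.36), and the list as a whole summed to 646 CPM in Ctrl and 459 in RES, against 1320.3 and 176 CPM in monocytes and macrophages. Of the 3 lower in NK cells, Cxcl9 (22.5 and 0.464 CPM) and Cxcl10 (77.5 and 10.2 CPM) reached the minimum in Ctrl alone. Free RNA in the droplets was not measured, and its part in the chemokine counts of NK cells was not tested.

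Of 13 listed receptors and factors of the interferon pathway, 6 were lower in monocytes and macrophages and none was higher, against 4.58% and 6.64% of all genes. Irf1, an interferon-induced transcription factor, stood at 153 CPM in Ctrl and 51.4 in RES (-1.57, -1.70 to -1.45). Irf7, Nlrc5, Stat2 and Irf8 were also among the lower genes, and Nlrc5, the transactivator of MHC class I genes, had 27.2 and 10.3 CPM. Jak1 (206 and 203 CPM) and Stat3 (154 and 173 CPM) stood at the upper end, and the receptor chains Ifngr1 (649 and 529.8 CPM) and Ifngr2 (181 and 172 CPM) were not past the fold. In NK cells Irf1 was not past the fold, at 159 and 147 CPM.

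The peptide-loading genes that act after the immunoproteasome were lower in part. Of 11 genes 3 were lower in monocytes and macrophages, where 4.58% of all genes were lower: Tap1 (127 CPM in Ctrl and 45.9 in RES, -1.46, -1.60 to -1.33), Tapbpl (35.8 and 20.02 CPM, -0.84) and H2-K1 (1219 and 806 CPM, -0.60). Tap2, on the far side of Psmb8, stood at 54.7 and 37.1 CPM (-0.56), and B2m at 2182 and 1783 CPM (-0.29). The general folding genes Canx (268 and 335 CPM) and Erap1, which trims peptides (31.7 and 34.9 CPM), had the highest ratios. In NK cells 0 of 11 were past the fold, which is near the background of 0.59% lower and 0.775% higher, and Tap1 stood at 92.2 and 75.6 CPM.

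The lists of genes that build, bind or regulate the standard proteasome are short, and counts of none past the fold in them lie near the background of 4.58% of all genes lower and 6.64% higher in monocytes and macrophages. Of 8 listed assembly chaperones 6 were tested and none was past the fold, with Pomp, which matures the core, lowest (480.4 and 374 CPM, -0.36, -0.42 to -0.30), then Psmg4 (-0.08), and Psmd5 (0.51) and Psmd9 (0.32) highest. Of the proteasome-bound proteins outside the symbol rule 10 were in the table, 9 were tested and none was past the fold, from AI314180 (-0.05) and Rad23b (0.11) at the lower end to Adrm1, a ubiquitin receptor (0.47), near the upper end. Of 8 regulators of standard subunit genes none was past it: Nfe2l1, which encodes NRF1, stood at 63.6 CPM in Ctrl and 86.5 in RES (0.44, 0.30 to 0.59), Mafg was at 0.29, Ngly1 at -0.15 and Mafk at -0.31. Of 8 ubiquitin genes 1 was lower, Ube2l6, the conjugating enzyme of the interferon-induced modifier ISG15 (33.8 and 13.2 CPM, -1.35), and Ube2n (0.58) and Uba1 (0.32) were highest.

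Among monocytes and macrophages of each library, the cells with more UMIs of the 15 interferon gamma genes had a larger immune share. In Ctrl monocytes and macrophages the share was 23.3% in the 369 cells with none of those UMIs, 25.4% in the 401 cells with under 5 per 10000, 32.7% in the 186 cells with 5 to 20 and 39.2% in the 105 cells with 20 or more. In RES it was 14.7% in 1048 cells, 18.2% in 899, 24.6% in 88 and 32.6% in 17. The upper 2 bands held 17.5% and 9.90% of the Ctrl cells but 4.29% and 0.828% of the RES cells. Psmb9 stood at 125 and 389 CPM in the lowest and highest Ctrl bands and at 53.6 and 371 CPM in those of RES. These bands also differed in makeup. Macrophages with Arg1 or Spp1 were 450 of the 1048 RES cells with none. They were 4 of the 88 with 5 to 20 and 0 of the 17 with 20 or more. Within RES classical monocytes alone the share was 19.4%, 20.9%, 24.3% and 33.1% over the bands. Psmb9 stood there at 107 CPM in the lowest and 373 CPM in the highest band. NK cells showed the same order in both libraries. Their share ran from 23.8% with none to 38.1% with 20 or more (47 cells) in Ctrl, and from 23.1% to 44.8% (10 cells) in RES. Conventional dendritic cells did not show this order in the bands with enough cells. In Ctrl the share was 32.2% with none (60 cells), 33.7% under 5 (114) and 31.9% with 5 to 20 (10). In RES it was 31.0% with none (48 cells) and 30.8% under 5 (80). Dendritic cells with 20 or more numbered 5 in Ctrl and 1 in RES, too few for a share. The 3 RES dendritic cells with 5 to 20 were also too few. Cells of 1 library are not replicates, and the median depth differed between the bands, at 5005 UMIs in the lowest and 8037 in the highest Ctrl band.

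The libraries still differed among cells with none of the interferon list UMIs. In classical monocytes of this kind the immune share was 23.2% in 107 Ctrl cells (21.9 to 24.5) and 19.4% in 148 RES cells (18.6 to 20.3). Nonclassical monocytes gave 23.7% in 158 cells (22.3 to 25.1) and 19.1% in 352 (18.3 to 19.998), and macrophages without Arg1 or Spp1 gave 24.3% in 54 cells (22.0 to 26.6) and 17.4% in 87 (16.3 to 18.6). In percentage points the difference was smaller there than over the whole of each class. In NK cells of this kind the shares were 23.8% in 371 cells (22.7 to 24.9) and 23.1% in 278 (22.0 to 24.3). In these cells too the depth differed, with medians of 7470 UMIs in Ctrl and 9826 in RES classical monocytes and of 4108 and 4850.5 in nonclassical monocytes, and its part was not tested.

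**Figure D5:**
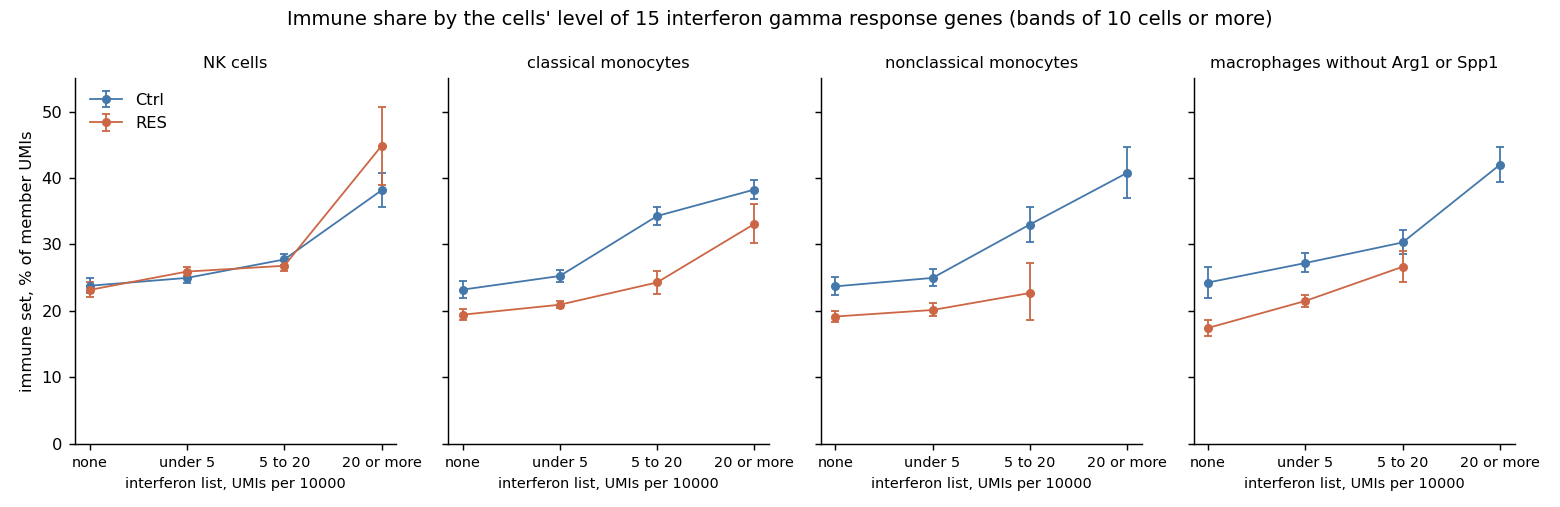
Immune share of proteasome member UMIs, in percent, against the cells' summed level of 15 interferon gamma genes in UMIs per 10000, in 4 classes for Ctrl (blue) and RES (orange); points are bands of at least 10 cells with exact 95% counting intervals. The share is higher in the upper bands in both libraries, RES lies below Ctrl within the monocyte and macrophage bands, and in NK cells the intervals overlap in every band.

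Other measures also moved with the immune set in monocytes and macrophages. Their cells had a median of 6992 UMIs in Ctrl against 9598 in RES, and the median mitochondrial share 2.44% and 2.58%. Arg1 and Spp1 summed to 164 CPM in Ctrl and 4186 in RES, with both genes detected in both libraries. The 4 type 1 dendritic cell markers, whose own class is rich in immune subunits, summed to 33.3 and 4.82 CPM, and the 10 NK cell markers to 82.9 and 56.6 CPM, with all markers of both lists detected. The 4 plasmacytoid dendritic cell markers summed to 295 and 190.4 CPM. The part of depth and of these markers in the result was not tested, beyond the value above without macrophages that had Arg1 or Spp1. In sorted cells of a class, fewer cells with a transcript and less of it per cell cannot be told apart from sums.

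The remaining members are given over all kept cells, where none was past the fold and the 36 log2 ratios ran from -0.13 for Psma4 to 0.40 for Psmd8. In the alpha ring, Psma7 stood at 452 CPM in Ctrl and 447 in RES, Psma2 at 209 and 216, Psma3 at 208 and 206, Psma4 at 186 and 170.2, Psma5 at 132 and 127, Psma1 at 132 and 144 and Psma6 at 112 and 146. Of the structural beta subunits, Psmb1 stood at 321 and 310.1 CPM, Psmb4 at 184 and 213, Psmb3 at 177 and 193 and Psmb2 at 122 and 131. Of these 11 core genes Psma6 (0.38, 0.31 to 0.46) and Psmb4 were the most raised. Among the standard catalytic subunits Psmb5 stood at 172 and 190.1 CPM, Psmb6 at 135 and 149 and Psmb7 at 73.4 and 95.6.

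Of the ATPase subunits that unfold substrates, Psmc3 stood at 119 CPM in Ctrl and 128 in RES over all kept cells, Psmc6 at 76.1 and 94.4, Psmc5 at 66.7 and 75.2, Psmc1 at 64.5 and 78.0, Psmc4 at 54.2 and 58.2 and Psmc2 at 53.6 and 61.4. All 6 were higher in RES as values. Among the non-ATPase subunits, the ubiquitin receptor Psmd4 stood at 129 and 131 CPM, the deubiquitinase Psmd14 at 63.2 and 70.5, and the scaffold genes Psmd1 and Psmd2 at 60.7 and 65.7 and at 89.0 and 107. Psmd8 stood at 144 and 189 CPM, Psmd11 at 87.8 and 96.0, Psmd13 at 86.8 and 92.9, Psmd6 at 74.4 and 83.0, Psmd7 at 73.3 and 74.6, Psmd12 at 67.6 and 67.5 and Psmd3 at 41.04 and 43.9. Thus 10 of these 11 were higher as values, the exception being Psmd12. The median log2 ratio over all genes tested in all kept cells was 0.003, and the share of all genes above 0 was not computed. The chaperones Psmd10 (36.6 and 36.0 CPM) and Psmd9 (31.4 and 32.8 CPM) and the activators of nuclear proteasomes Psme3 (43.8 and 46.8 CPM) and Psme4 (65.7 and 63.6 CPM) were close between the libraries.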

How the data were processed

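The authors deposited UMI counts of each gene in each called cell, with no normalization. They were made with Cell Ranger 3.1.0 per the file headers, on the mm10 build and with bcl2fastq per the submitters' processing notes. Which gene annotation was counted is not given in the sources used here. Depth limits precision through counting error, which the intervals cover.

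Everything else was computed here with Python 3.11.15, numpy 2.4.6, scipy 1.17.1 and scanpy 1.11.5. Barcodes under 200 genes or above 10% mitochondrial UMIs were left out (245 Ctrl and 121 RES), and the highest Scrublet scores, at 0.8% per 1000 deposited barcodes, were left out as doublets (109 and 146). Classes came from summed marker UMIs per 10000. The gate minimums (from 3 for type 1 dendritic cells to 30 for NK cells) were set after marker levels were seen. Cells outside every gate (340 Ctrl and 220 RES) and T cells (261 and 130) entered only the values over all kept cells. UMIs were summed per class and library. Members 1.5-fold apart, with a pseudocount of 1 CPM, among genes of at least 20 CPM in either library in that class, were counted as higher or lower. A gene that reached the minimum in 1 library alone was thus more prone to be counted in that direction. The genes of the background entered by the same rule. Intervals are exact Poisson for levels, exact conditional for ratios and Clopper-Pearson for shares. Functions were tested on simulated data.

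Named genes are the 5 immune and 3 standard catalytic genes in every class, every other member over all kept cells, the 2 highest and 2 lowest other members in each class, and up to 2 highest and 2 lowest of each related list. Some genes that this rule selects are among items not reported here. Psma6 and Psmd8 in further classes, and listed genes beyond those, were chosen after their values were seen. Members and lists were chosen with earlier results of these data known. In the related lists, Shfm1 and Ecpas are other names of Sem1 and AI314180. Alternatives varied the cell filter, doublets, classes, gates, weighting, depth, member sets, fold settings and scaling.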

Additional observations from a re-analysis of the deposited data

How the results depend on the processing

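No log2 odds ratio changed sign under the alternatives run. The Psmb9 share of NK cells, 49.4% in Ctrl and 50.5% in RES, was instead higher in Ctrl with all deposited barcodes (51.2% and 50.4%) and with cells weighted equally (49.3% and 48.9%). Of 79 alternative values of the log2 odds ratio 53 moved by less than their interval and 26 by more, of 112 alternative counts 97 stayed within 1.5 times, and of 66 alternative pair shares 46 stayed within their interval. The causes of the shifts were not tested. In all kept cells the log2 odds ratio was -0.49 with cells weighted equally, -0.48 with cells thinned to 1000 UMIs and -0.63 against core particle genes alone. In monocytes and macrophages it was -0.85, -0.79 and -0.89 under these 3, -1.05 with classes from clusters, -1.05 with the catalytic immune genes alone, -0.92 over members of at least 100 CPM and -0.63 without macrophages that had Arg1 or Spp1, chosen after seeing the data. In classical monocytes it was -0.57 thinned, -0.38 from clusters and -0.58 with catalytic genes alone, and in nonclassical monocytes -0.37 thinned, -0.45 from clusters and -0.46 with gates at 2 times the UMIs. In macrophages it was -1.15 weighted equally, -1.21 thinned, -1.48 from clusters, -1.49 with the stricter gates, -1.61 with catalytic genes alone and -1.22 against core genes. In conventional dendritic cells it was -0.0094 thinned and -0.078 with catalytic genes alone, and in B cells -0.71 thinned and -0.24 from clusters. In monocytes and macrophages the Psmb8 share was 71.6% in Ctrl and 58.5% in RES weighted equally, and in RES 59.9% thinned and 56.1% from clusters. The Psmb9 share was 55.1% in Ctrl and 37.7% in RES thinned and 37.4% in RES weighted equally, and the Psmb10 share in Ctrl was 73.6% from clusters. Without macrophages that had Arg1 or Spp1, 2 members were lower in monocytes and macrophages in place of 5. Counts of members lower were, from clusters, 0 in place of 2 in classical monocytes, 1 in place of 3 in nonclassical monocytes and 2 in place of 4 in B cells. A pseudocount of 10 CPM left 1 lower in classical monocytes, and 2 were lower in B cells among genes of at least 100 CPM. Members higher in B cells numbered 5, and 9 from clusters, 1 at 100 CPM and 3 with the larger pseudocount. In classical monocytes the count of 1 higher was 2 from clusters and 0 with all deposited barcodes, at 100 CPM or with the larger pseudocount, and in macrophages the 3 higher were 1 with that pseudocount or with median-ratio scaling. Thinning left out 106 Ctrl and 51 RES cells with fewer UMIs and keeps few UMIs per gene. No paired analysis was possible because each group had 1 library and no value came from a test. Variation between mice cannot be seen in pools of 5, and the rarer classes are limited by depth.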
